A study of Homo sapiens with 8 samples.

Results

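The same degrader treatment was given to a pair of human cell lines from T-cell acute lymphoblastic leukaemia (T-ALL), and the RNA response of one line was set against that of the other, gene by gene. The lines were DND-41 and MOLT-4, each held for 8 h with ACBI-1 at 100 nM or with its solvent, DMSO, as control, in 4 groups of 2 libraries each. The quantity described is the difference in effect: the log2 fold change of ACBI-1 over DMSO in MOLT-4 minus that in DND-41. A difference above 0 is called higher in MOLT-4 here, and one below 0 lower in MOLT-4. Genes were members when their mean level was at least 1 CPM in both lines, which 11489 of 63677 genes met. CPM is the number of counts in every 1000000 of a library, with library sizes scaled by the TMM method. All 11489 passed the filter on low counts, and the rule used levels only, not effects. Just inside the threshold, 137 members had a mean of 1 to 1.1 CPM in their lower line, and 184 genes stood between 0.9 and 1 CPM just outside it.

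BAF complexes are ATP-driven machines that slide or evict nucleosomes, and so open enhancers and promoters to transcription factors. SMARCA2 and SMARCA4 are their alternative ATPases, and PBRM1 belongs to the form called PBAF. ACBI-1 joins a ligand for the bromodomains of these proteins to one that recruits the ubiquitin ligase VHL, so that the proteins are ubiquitinated and destroyed. T-ALL is a cancer of immature T cells whose enhancers are often driven by NOTCH1, RUNX1, MYB and one ectopic factor per leukaemia. Here that factor differed between the lines. TLX3, a homeobox factor, stood at 319 and 300.4 CPM in untreated DND-41 and at 0 in both untreated MOLT-4 libraries. TAL1, a helix-loop-helix factor, stood at 56.1 and 55.6 CPM in untreated MOLT-4 and at 0 in DND-41.

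Library totals ran from 19860759 to 20239888 counts, so that about 0.15 CPM corresponds to 3 counts. Pearson's r between replicates, over log2 CPM, was between 0.996 and 0.997. All 10 T-lineage markers reached 1 CPM in both untreated lines, and 0 of 12 myeloid markers did in any group. Of 10 B-lineage markers, 4 did in untreated DND-41 and 3 in untreated MOLT-4. Their summed level was 2041 to 2052 CPM in untreated DND-41 and 174.5 to 179.9 in untreated MOLT-4. Of 14 stromal and epithelial markers, 1 reached 1 CPM in untreated DND-41, where the list summed to 50.2 to 52.6 CPM. Nearly all of that sum was PDGFRB, at 50.05 and 52.4 CPM, which stood at 8.04 and 10.9 in treated DND-41. Separate cultures are not stated in the labels for the 2 libraries of a group, so the p-values rest on a spread that may be technical. The replicate 2 libraries of MOLT-4 stood apart: COL1A1, a fibrillar collagen of connective tissue, reached 55.4 CPM with DMSO and 11.4 with ACBI-1, against 2.21 and 0 in the replicate 1 libraries. The summed CPM of 14 stromal and epithelial markers ran from 4.67 to 76.4 in untreated MOLT-4 and from 0.953 to 16.6 in treated MOLT-4, with 5 and 3 markers at 0. Its part in the differences was not tested, so the counts of the gene lists are followed by those without both replicate 2 libraries of MOLT-4. That leaves 1 library in each MOLT-4 group, so calls can also be lost because there are fewer replicates. A call lost there does not show that those libraries carried the difference. In bulk RNA, fewer cells of a type and less RNA per cell cannot be told apart.

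The lines responded unequally at 1962 of 11489 members, 17.1% of them, by edgeR's quasi-likelihood test of the interaction with Benjamini-Hochberg adjustment over the 15498 genes tested. The difference was higher in MOLT-4 at 1081 members (9.41%) and lower at 881 (7.67%). Among all genes tested the shares were 7.18% and 6.17%. Differences of at least 2-fold that passed the test were more often lower than higher, 211 members (1.84%) against 133 (1.16%). Without both replicate 2 libraries of MOLT-4, 435 members were called higher and 483 lower, and 903 of the 1962 calls were kept with the same sign. The balance of signs rests on the scaling: 55.1% of called differences were higher with TMM and 26.6% with library size alone, which moved the median difference by -0.12. Levels are relative to the rest of each library, so a change common to most RNAs would not be seen.

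For most members the difference was small. The median absolute difference was 0.18 on the log2 scale with a median SE of 0.12, and the smallest difference called was 0.24. For 7241 members (63.0%) the 95% interval of the difference lay within 1.5-fold either way. Across the 11489 genes the effects of the lines had Pearson's r of 0.716 and Spearman's rho of 0.655. This describes genes, which are not independent replicates, and the lines share no library.

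**Figure D1:**
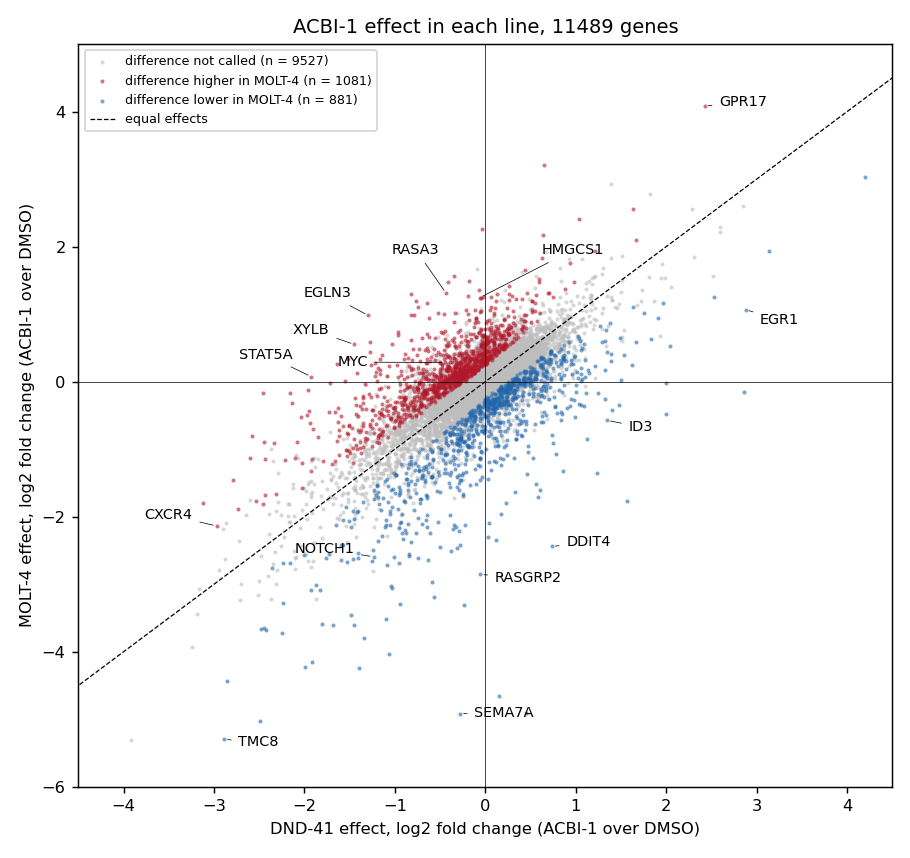
Each point is 1 of 11489 genes, with the log2 fold change of ACBI-1 over DMSO in DND-41 on the horizontal axis and in MOLT-4 on the vertical axis. Red points are the 1081 genes whose difference was called higher in MOLT-4, blue points the 881 called lower, grey points the 9527 not called, and the dashed line marks equal effects; SEMA7A lies far below it, at an effect of -4.92 in MOLT-4 and -0.28 in DND-41.

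The called differences took every form that unequal effects can take. In 215 members (1.87%) the lines moved in opposite directions, each line's own effect also being called. Of these, 126 rose in MOLT-4 and fell in DND-41, and 89 fell in MOLT-4 and rose in DND-41. Among all genes tested, 1.47% were called in opposite directions. The treated and control libraries did not overlap in either line for any of the 215, which their selection by a call in each line made likely in advance. Only 23 of them had an effect of at least 1.5-fold in both lines, while 85 had a difference of at least 2-fold. A fall called in DND-41 but not in MOLT-4 was seen at 335 members, and a rise called in MOLT-4 but not in DND-41 at 293. A fall called in MOLT-4 alone was seen at 236, and a rise called in DND-41 alone at 193. Where both lines fell, the fall was larger in MOLT-4 at 277 members and larger in DND-41 at 225. Where both rose, the rise was larger in MOLT-4 at 87 and in DND-41 at 79. A further 22 were called for the difference with no call in either line. The shared falls that were deeper in MOLT-4 held 85 differences of at least 2-fold, more than any other form.

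**Figure D2:**
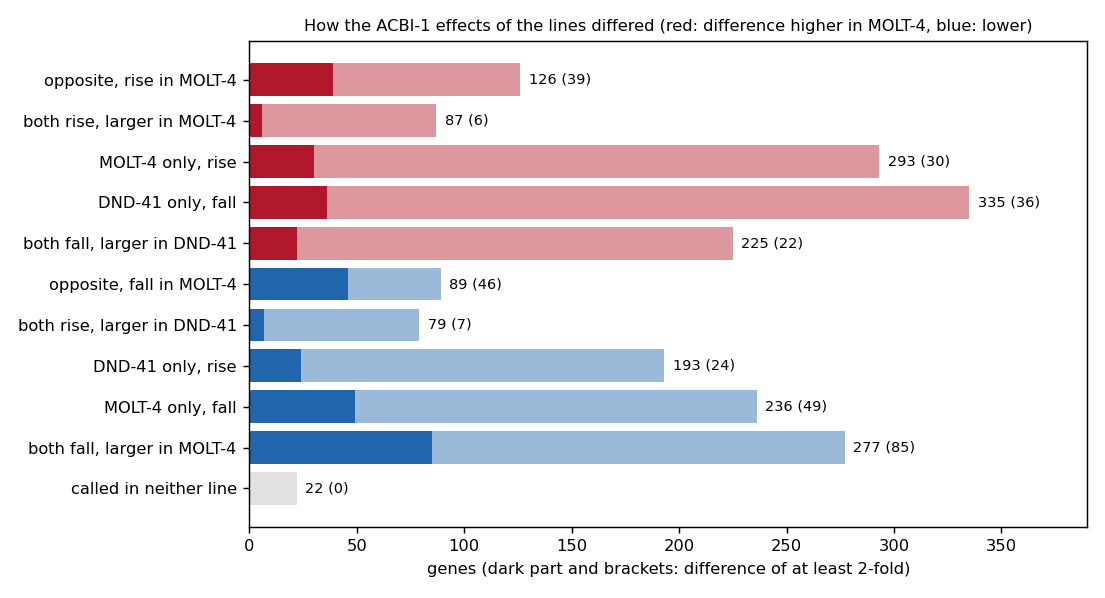
Bars give the number of genes with a called difference in each form, red where the difference was higher in MOLT-4 and blue where it was lower. The dark part and the number in brackets count differences of at least 2-fold, from 85 for shared falls larger in MOLT-4 to 6 for shared rises larger in MOLT-4.

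At the RNA level, the genes of the degrader's own targets had small differences in effect, of which that of SMARCA2 was called. Protein was not measured, so these values do not show how far the targets were degraded in each line. SMARCA4 stood at 460.2 and 458 CPM with DMSO and 566 and 585 with ACBI-1 in DND-41, and 696 and 731 against 817 and 818 in MOLT-4. Treated libraries were above controls in both lines. The difference in effect was -0.13 ± 0.08 (SE, adjusted p = 0.354), with a 95% interval from -0.30 to 0.04. PBRM1 differed by -0.21 ± 0.09 (adjusted p = 0.172), with a 95% interval from -0.40 to -0.01. The intervals are not adjusted for the number of genes. SMARCA2 was called, at a difference of 0.35 ± 0.11 (adjusted p = 0.0346). It went from 63.4 and 69.2 to 54.6 and 60.4 CPM in DND-41 and from 24.4 and 26.3 to 27.3 and 28.8 in MOLT-4. Without both replicate 2 libraries of MOLT-4 the SMARCA2 value was 0.34 with an adjusted p of 0.217. Over all 27 BAF subunit members the median difference was -0.04. BCL7B and SMARCA2 were called higher, and BCL7A and GLTSCR1, a subunit of the non-canonical form, were called lower, against 0 and 2 calls without both replicate 2 libraries of MOLT-4. Calls were made at 14.8% of the list, against 17.1% of all members. The intervals of 23 of the 27 lay within 1.5-fold.

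Genes of cholesterol and fatty acid synthesis had the highest share of called differences among the lists described, 81.25%, and all but 1 were higher in MOLT-4. These enzymes build sterols and fatty acids from acetyl-CoA, and most are switched on by the SREBP factors when membrane sterol is low. Of 32 members, 25 were called higher in MOLT-4 and 1 lower, with a median difference of 0.64 against 0.01 over all members. The list rose in MOLT-4 at 28 of 32 members and fell at 1, while in DND-41 it rose at 14 and fell at 7. Over all genes tested, a rise was called at 18.3% in MOLT-4 and 17.4% in DND-41, and a fall at 21.6% and 22.3%. Over the alternatives between 17 and 26 were called higher, and 17 were without both replicate 2 libraries of MOLT-4.

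HMGCS1, which makes the HMG-CoA that feeds sterol synthesis, had the largest difference of the list. It stood at 129.7 and 131 CPM with DMSO and 126 and 124 with ACBI-1 in DND-41. In MOLT-4 it stood at 51.0 and 59.4 CPM with DMSO and 119 and 143 with ACBI-1. In MOLT-4 the treated libraries lay above the controls, near the level of all 4 DND-41 libraries, and the difference was 1.31 ± 0.11 (adjusted p = 1.58e-07). SQLE, which makes squalene epoxide, differed by 0.86 and MSMO1, which removes methyl groups from sterols, by 1.03. FDFT1, which makes squalene, moved in opposite directions. It fell from 682 and 677 to 560.3 and 505 CPM in DND-41 and rose from 329.6 and 363 to 493 and 549.5 in MOLT-4, at a difference of 0.94 ± 0.10 (adjusted p = 2.08e-06). ELOVL6, a fatty acid elongase, and SCD, a desaturase, also fell in DND-41 and rose in MOLT-4, with differences of 1.2 and 0.87. FADS1, a fatty acid desaturase, fell in both lines, with effects of -1.73 in DND-41 and -0.45 in MOLT-4. The factor genes themselves differed less: SREBF2 by 0.33 and SREBF1 by -0.29, the single member called lower.

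The promoters of HMGCS1 and FADS1 are shown because they belong to the 2 members of this list with the largest differences. They are RefSeq sequences of the GRCh38.p14 build, from 250 bases before the gene start to 50 after it, chr5:43313363-43313662 on the minus strand and chr11:61816954-61817253 on the minus strand. Capitals mark matches on either strand to short motifs.
HMGCS1: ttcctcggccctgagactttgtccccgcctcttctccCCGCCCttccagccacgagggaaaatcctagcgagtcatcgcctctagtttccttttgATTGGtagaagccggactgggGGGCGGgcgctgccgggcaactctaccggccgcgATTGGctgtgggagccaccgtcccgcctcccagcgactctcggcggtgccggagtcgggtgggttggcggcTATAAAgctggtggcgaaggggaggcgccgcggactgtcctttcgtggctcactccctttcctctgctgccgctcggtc
FADS1: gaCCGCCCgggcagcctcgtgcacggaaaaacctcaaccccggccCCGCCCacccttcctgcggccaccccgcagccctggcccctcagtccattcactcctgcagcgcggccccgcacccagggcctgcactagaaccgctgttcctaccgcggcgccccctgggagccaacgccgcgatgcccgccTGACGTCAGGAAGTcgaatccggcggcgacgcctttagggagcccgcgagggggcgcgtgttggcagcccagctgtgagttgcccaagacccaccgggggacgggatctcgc
The motifs searched were TGGGAA for RBPJ, TGTGGT for RUNX, GGAAGT for ETS, AGATAA for GATA factors, CANNTG for an E-box, CACGTG for a MYC E-box, TGANTCA for AP-1, TGACGTCA for the CRE, CCAAT for the CCAAT box, GGGCGG for SP1, TATAAA for the TATA box and TCACNCCAC for the sterol element SRE. The MYC E-box is also an E-box, and E-box matches are not in capitals. HMGCS1 held CCAAT boxes 155 and 100 bases before the start, SP1 motifs, and a TATA box 29 bases before it. FADS1 held a CRE directly followed by an ETS motif, without overlap, and SP1 motifs. Neither promoter held a match to the SRE in these letters. Among 27305 promoters of the same length, 35.7% held the CCAAT box, 44.6% SP1, 11.95% the TATA box, 23.2% ETS, 1.98% the CRE and 1.15% the SRE. A match describes letters and is not a measured binding site. Only 76.6% of members had a promoter in the table, so shares were not compared between groups of genes.

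The difference ran the other way among NOTCH receptors and their targets. NOTCH1 is the receptor whose activating mutations drive most T-ALL, and RBPJ is the DNA-binding partner of its cleaved form. Of 14 members, 7 were called lower in MOLT-4 and 2 higher, where 7.67% and 9.41% of all members were, and the median difference was -0.30. These counts were 6 and 1 without both replicate 2 libraries of MOLT-4. NOTCH1 fell from 729.6 and 739.6 to 284 and 340.3 CPM in DND-41 and from 988 and 996 to 168 and 161 in MOLT-4. Groups did not overlap in either line, and the fall was deeper in MOLT-4, at a difference of -1.36 ± 0.10 (adjusted p = 4.19e-08). HES1, the classic NOTCH target and a transcriptional repressor, fell from 81.2 and 81.3 to 29.5 and 28.4 CPM in DND-41 and from 66.2 and 62.8 to 5.66 and 6.06 in MOLT-4, a difference of -1.97 ± 0.11 (adjusted p = 9.47e-10). DTX1, a ubiquitin ligase induced by NOTCH, fell from 1357 and 1416 to 489 and 524 CPM in DND-41 and from 37.5 and 37.7 to 2.33 and 3.85 in MOLT-4, a difference of -2.15. NOTCH3 differed by -1.21 and IGF1R, a growth factor receptor gene under NOTCH control in T-ALL, by -0.90. IGF1R had an effect of -0.07 in DND-41, which was not called, and -0.97 in MOLT-4. RBPJ itself rose in both lines and rose less in MOLT-4, at -0.37. CCND3, the D-type cyclin of developing T cells, fell as the receptor did in DND-41 and went the opposite way to it in MOLT-4. It fell from 991 and 976 to 779 and 790.3 CPM in DND-41 and rose from 719 and 744 to 951 and 881 in MOLT-4, a difference of 0.65 ± 0.09 (adjusted p = 3.91e-05). NOTCH2 and NOTCH2NL are near-identical and may share reads, so their values are uncertain.

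**Figure D3:**
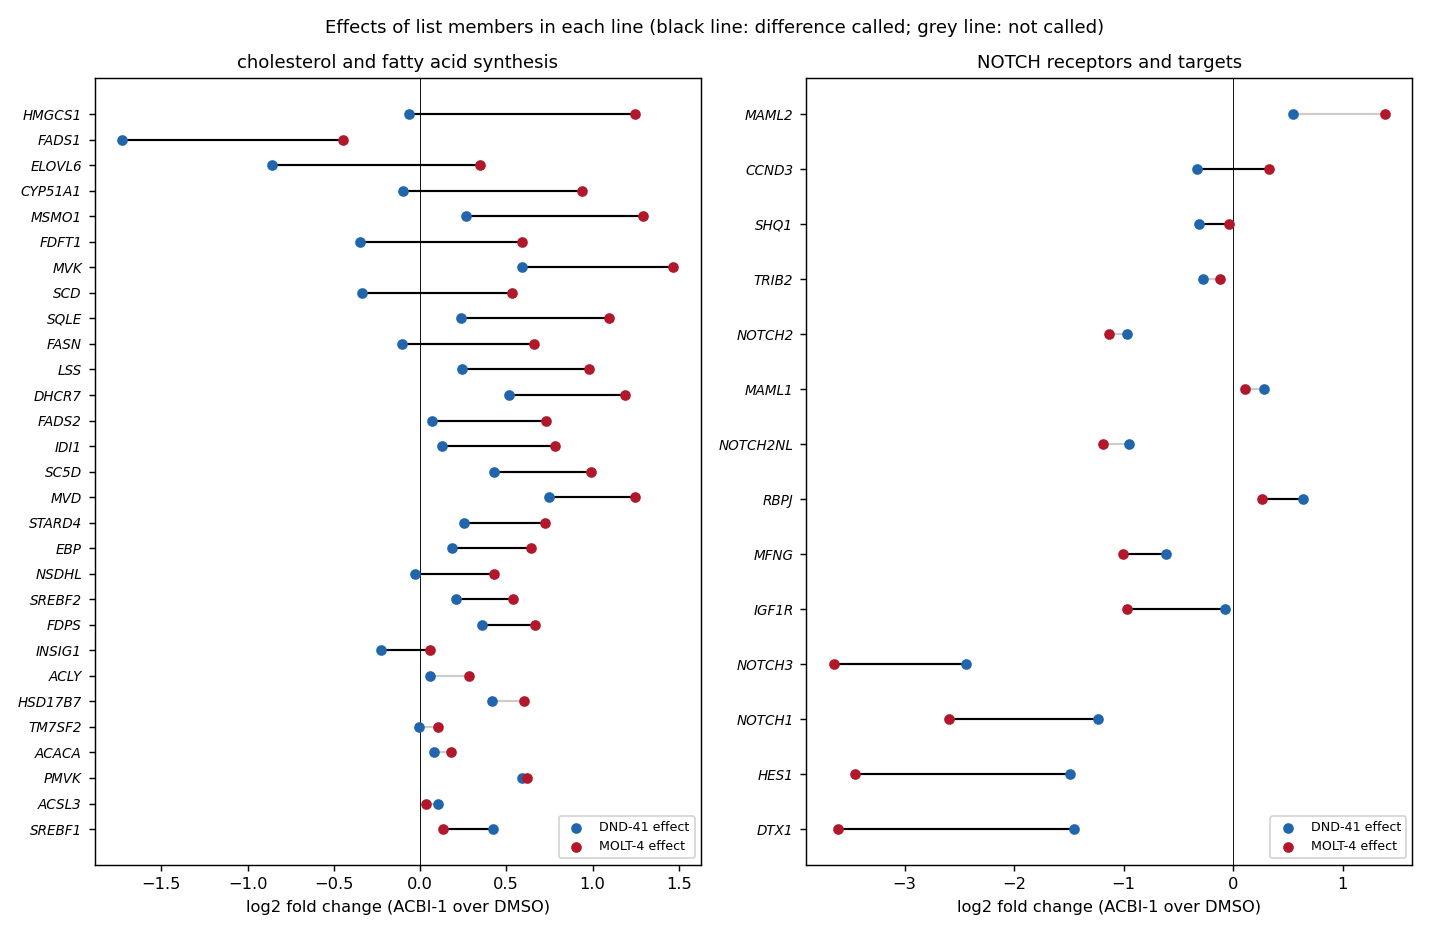
Each row is 1 gene of the sterol and fatty acid list (29 of its 32 genes, left) or the NOTCH list (14 genes, right), with its log2 fold change in DND-41 in blue and in MOLT-4 in red. A black line joins effects whose difference was called; on the left red lies right of blue in all called genes except SREBF1, and on the right red lies left of blue in 7 of the 9 called.

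MYC, the growth-promoting factor with a NOTCH1-bound distal enhancer in T-ALL, moved in opposite directions. It stood at 722 and 732 CPM with DMSO and 538 and 533 with ACBI-1 in DND-41, and 789 and 801 against 954 and 980.4 in MOLT-4. Treated libraries lay below controls in DND-41 and above them in MOLT-4, and the difference was 0.72 ± 0.08 (adjusted p = 5.38e-06). MYB rose from 732 and 702 to 1108 and 1105 in MOLT-4 and went from 268 and 269.9 to 253 and 228 CPM in DND-41, where the fall did not pass the test. Its difference was 0.78 ± 0.09 (adjusted p = 4.6e-06). RUNX1 differed by 0.03, with a 95% interval from -0.18 to 0.23. Among 27 members of the list of T-ALL transcription factors, 9 were called higher in MOLT-4 and 5 lower, and the median difference was 0.13. That was a called share of 51.85%, against 17.1% of all members. The counts were 7 and 4 without both replicate 2 libraries of MOLT-4, and 7 and 7 with library size alone. ETS1, an ETS-family factor of lymphocytes, fell from 177 and 174 to 98.9 and 102 CPM in DND-41 and rose from 274 and 261 to 389.6 and 358 in MOLT-4, a difference of 1.29 ± 0.08 (adjusted p = 5.9e-09). ETS2 fell more in DND-41, and differed by 0.98. TCF7, which commits progenitors to the T lineage, fell in both lines, with effects of -1.22 in DND-41 and -0.49 in MOLT-4. IKZF1, the Ikaros factor, had an effect of 0.01 in DND-41, not called, and rose in MOLT-4 with 0.54. RUNX3, which silences CD4 in cytotoxic T cells, fell in DND-41 alone, with effects of -0.43 and 0.24.

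ID3 was the clearest gene of this list to go the other way. ID3 binds E proteins and keeps them off DNA, and E proteins restrain growth in early T cells. It rose from 53.4 and 43.3 to 125 and 120.1 CPM in DND-41 and fell from 49.0 and 46.9 to 30.6 and 33.9 in MOLT-4. The untreated libraries of the lines overlapped and the treated ones were far apart, and the difference was -1.92 ± 0.12 (adjusted p = 2.84e-09). The E protein genes themselves had smaller differences, both called, TCF12 at -0.27 and TCF3 at 0.28. TCF12 rose and TCF3 fell in both lines. ARID5B, a TAL1-dependent gene in T-ALL, rose in DND-41 from a low level, 1.66 and 1.55 CPM to 3.01 and 3.70, and stood at 50.03 and 47.5 against 54.7 and 45.2 in MOLT-4.

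The genes of opposite direction with the largest differences at a mean of at least 5 CPM in both lines belonged to varied processes. XYLB, the kinase of xylulose, stood at 15.1 and 12.6 CPM with DMSO and 3.92 and 6.17 with ACBI-1 in DND-41, and 40.2 and 38.8 against 53.8 and 61.9 in MOLT-4. It fell in DND-41 and rose in MOLT-4, at a difference of 2.0 ± 0.19 (adjusted p = 4.78e-07). ARRDC4, an arrestin-like protein that like its relative TXNIP limits glucose uptake, fell from 26.3 and 29.9 to 9.86 and 9.73 CPM in DND-41 and rose from 9.45 and 9.89 to 12.7 and 11.7 in MOLT-4. Its treated level in DND-41 lay at the untreated level of MOLT-4, and the difference was 1.85 ± 0.15 (adjusted p = 8.23e-08). TERT, the telomerase catalytic subunit, fell from 12.2 and 10.8 to 4.45 and 4.98 CPM in DND-41 and rose from 10.9 and 12.5 to 17.5 and 17.7 in MOLT-4, so that lines that began together ended apart. Its difference was 1.87 ± 0.17 (adjusted p = 2.81e-07). DENND2D, a Rab exchange factor, went from 243 and 236 to 146 and 141 CPM in DND-41 and from 129.9 and 130.2 to 274 and 285 in MOLT-4. The order of the lines was exchanged, and the difference of 1.85 ± 0.08 (adjusted p = 6.38e-11) had the smallest adjusted p of the genes named. RDH10, a retinol dehydrogenase on the way to retinoic acid, stood at 97.3 and 106 CPM with DMSO and 55.7 and 61.8 with ACBI-1 in DND-41, and 7.77 and 7.16 against 14.6 and 15.1 in MOLT-4, and differed by 1.78.

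Opposite genes that fell in MOLT-4 were led by DDIT4, a stress-induced inhibitor of the growth kinase complex mTORC1. It stood at 20.7 and 20.4 CPM with DMSO and 36.4 and 32.1 with ACBI-1 in DND-41, and 20.3 and 20.8 against 3.60 and 3.96 in MOLT-4. All 4 untreated libraries lay together, the treated DND-41 libraries above them and the treated MOLT-4 libraries far below. The difference was -3.17 ± 0.15 (adjusted p = 1.08e-10), with a 95% interval from -3.48 to -2.86. CAMKK1, a kinase that activates calmodulin-dependent kinases, rose from 6.07 and 5.51 to 8.33 and 9.28 CPM in DND-41 and fell from 10.4 and 10.5 to 3.65 and 3.25 in MOLT-4, a difference of -2.20. EVPL, the cell-junction protein envoplakin, rose from 13.3 and 13.7 to 20.6 and 19.3 CPM in DND-41 and fell from 133 and 147 to 49.3 and 48.3 in MOLT-4. AKNA, an AT-hook protein of lymphocytes, rose from 354 and 365 to 589 and 642 CPM in DND-41 and fell from 519 and 539.5 to 267 and 238 in MOLT-4. The differences of EVPL and AKNA were -2.08 ± 0.11 (adjusted p = 2.95e-10) and -1.84 ± 0.09 (adjusted p = 2.7e-10). Groups of these 10 genes did not overlap in either line, as was so for all 215 members called in opposite directions. Their selection by a call in each line made this likely in advance. Among the alternatives, fitting each line alone took the difference from the main fit, so a called difference could not be lost there. Each of the 10 kept its call in all 17 alternatives, including those without both replicate 2 libraries of MOLT-4.

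**Figure D4:**
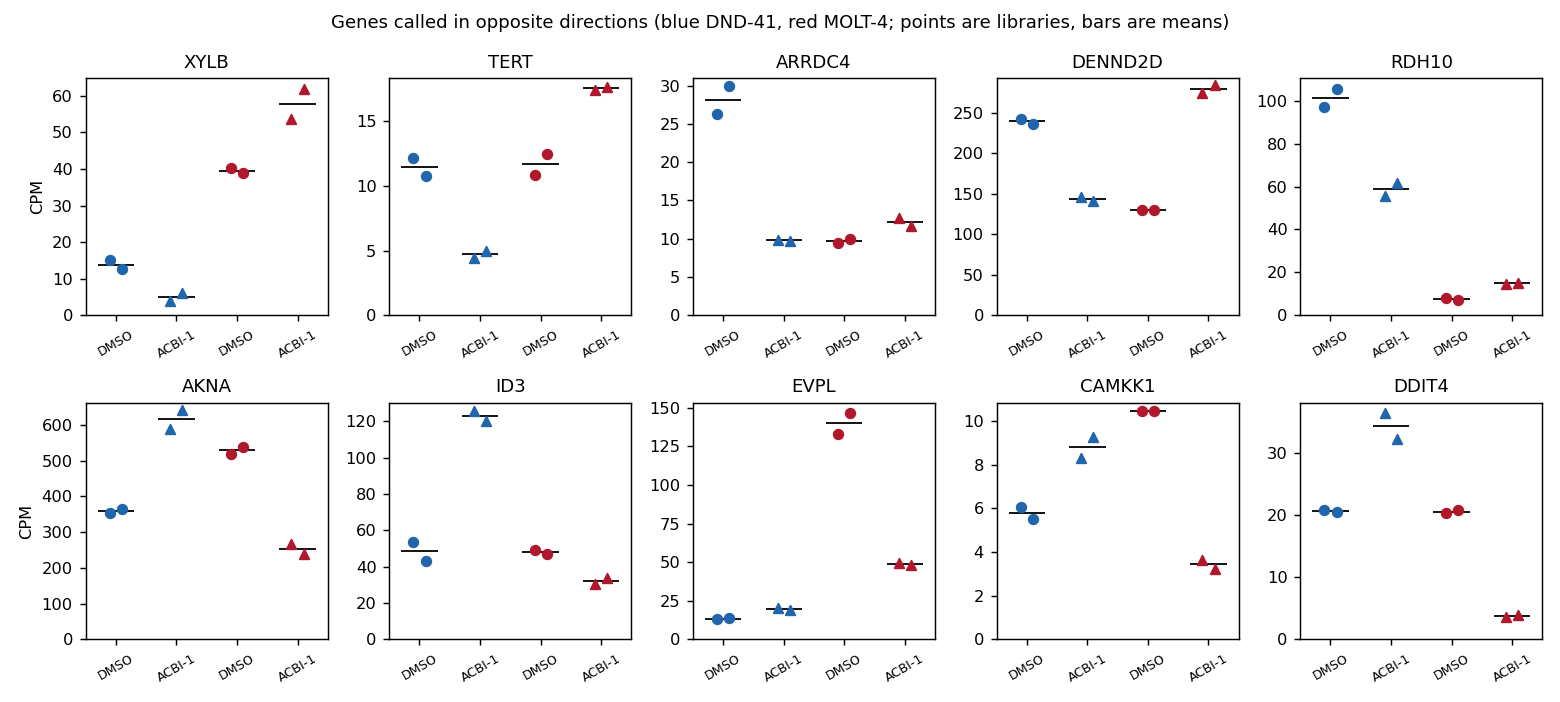
Panels show CPM in every library for the 5 genes with the largest difference of each sign among those called in opposite directions at a mean of at least 5 CPM in both lines (DND-41 blue, MOLT-4 red, circles DMSO, triangles ACBI-1, bars the mean of 2 libraries). In the upper row (XYLB to RDH10) the treated libraries lie below controls in DND-41 and above them in MOLT-4, and in the lower row (AKNA to DDIT4) the reverse holds, with DDIT4 at 3.60 and 3.96 CPM in treated MOLT-4.

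The promoters of XYLB, ARRDC4, DDIT4 and CAMKK1 are shown because these genes moved in opposite directions with large differences at a mean of at least 5 CPM in both lines, the 2 largest of each sign for which a sequence could be printed. They are RefSeq GRCh38.p14 windows of the same kind, at chr3:38346535-38346834 (plus strand), chr15:97960453-97960752 (plus), chr10:72273674-72273973 (plus) and chr17:3893004-3893303 (minus). Capitals mark the same motifs.
XYLB: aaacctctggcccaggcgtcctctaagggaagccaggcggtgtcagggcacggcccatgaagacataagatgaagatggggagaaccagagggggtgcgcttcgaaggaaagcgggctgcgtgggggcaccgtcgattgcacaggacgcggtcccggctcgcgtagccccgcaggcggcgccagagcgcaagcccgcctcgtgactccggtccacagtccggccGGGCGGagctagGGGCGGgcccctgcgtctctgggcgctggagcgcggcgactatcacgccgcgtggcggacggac
ARRDC4: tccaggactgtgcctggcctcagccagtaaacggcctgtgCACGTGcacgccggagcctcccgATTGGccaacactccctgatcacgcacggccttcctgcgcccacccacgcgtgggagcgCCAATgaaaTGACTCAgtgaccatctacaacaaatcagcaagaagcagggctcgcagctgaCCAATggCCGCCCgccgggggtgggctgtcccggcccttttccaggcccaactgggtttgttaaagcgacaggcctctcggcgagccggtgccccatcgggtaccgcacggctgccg
DDIT4: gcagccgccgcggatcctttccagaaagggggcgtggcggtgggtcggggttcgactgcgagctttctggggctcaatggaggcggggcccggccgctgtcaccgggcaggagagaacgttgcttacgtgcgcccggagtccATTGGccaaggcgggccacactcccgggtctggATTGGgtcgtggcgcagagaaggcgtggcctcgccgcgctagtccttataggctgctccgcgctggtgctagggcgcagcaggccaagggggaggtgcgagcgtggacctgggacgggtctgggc
CAMKK1: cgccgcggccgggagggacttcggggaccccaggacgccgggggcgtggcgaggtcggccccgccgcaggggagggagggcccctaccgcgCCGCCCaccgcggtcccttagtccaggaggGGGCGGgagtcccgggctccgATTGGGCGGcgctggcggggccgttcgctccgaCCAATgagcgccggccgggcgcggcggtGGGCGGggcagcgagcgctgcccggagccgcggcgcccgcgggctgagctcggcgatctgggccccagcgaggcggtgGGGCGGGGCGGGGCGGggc
DDIT4 and CAMKK1 each held CCAAT boxes 108 and 75 bases before the gene start, the first of which in CAMKK1 overlaps an SP1 motif. ARRDC4 held 3 CCAAT boxes, a MYC E-box 210 bases before the start and an AP-1 motif 119 bases before it. XYLB held 2 SP1 motifs and no CCAAT box in these letters. The MYC E-box occurs in 7.44% and the AP-1 motif in 7.76% of the 27305 promoters.

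Apart from DDIT4 and CAMKK1, the 6 largest differences toward a lower value at a mean of 5 CPM or more in both lines were falls that were deeper in MOLT-4 or called there alone. SEMA7A, a membrane-anchored semaphorin that signals through integrins, stood at 67.5 and 69.9 CPM with DMSO and 53.1 and 60.0 with ACBI-1 in DND-41, and 16 and 18.5 against 0.582 and 0.551 in MOLT-4. The MOLT-4 effect rested on 11 and 10 counts in the treated libraries, and the difference was -4.64 ± 0.22 (adjusted p = 1.08e-10). RASGRP2, the exchange factor that switches on the integrin regulator RAP1, stood at 75.7 and 67.3 CPM with DMSO and 71.3 and 66.3 with ACBI-1 in DND-41, and 31.4 and 34.3 against 4.61 and 4.46 in MOLT-4. Its DND-41 libraries overlapped between treatments, and the difference was -2.80 ± 0.13 (adjusted p = 1.08e-10). DCHS1, a large cadherin, went from 17.7 and 16.2 to 3.81 and 2.86 in MOLT-4 and overlapped in DND-41, a difference of -2.46. TMC8, a membrane protein linked to zinc handling, fell from 133 and 127 to 16.6 and 18.5 CPM in DND-41 and from 86.8 and 96.1 to 1.96 and 2.70 in MOLT-4, a difference of -2.41 ± 0.16 (adjusted p = 8.77e-09). At the other end, RASA3, which switches off RAS and RAP1, fell from 51.4 and 48.0 to 38.1 and 35.5 CPM in DND-41 and rose from 59.5 and 64.7 to 153 and 154 in MOLT-4, a difference of 1.74 ± 0.09 (adjusted p = 4.34e-10). RASGRP2 and RASA3 act on RAP1 from opposite sides.

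Genes that moved the same way in both lines also differed in depth. EGR1, an immediate early zinc-finger factor, rose from 34.5 and 36.6 to 253 and 269.5 CPM in DND-41 and from 46.2 and 33.4 to 102 and 64.2 in MOLT-4, less in MOLT-4 by a difference of -1.81 ± 0.21 (adjusted p = 7.87e-06). The treated MOLT-4 libraries were far apart from each other. VPS37C, an ESCRT-I subunit, and CPEB4, which binds mRNA tails, also rose more in DND-41, with differences of -1.26 and -1.2. TSHR, the thyrotropin receptor, rose from 64.3 and 60.0 to 128 and 127 CPM in DND-41 and from 23.0 and 25.8 to 130.5 and 128 in MOLT-4, so that the lines reached like levels from different starts. Its difference was 1.37 ± 0.09 (adjusted p = 8.77e-09). CHI3L2, a chitinase-like protein, and GPR17, a G-protein-coupled receptor, also rose more in MOLT-4, by 1.21 and 1.65. GPR17 was not called without both replicate 2 libraries of MOLT-4 (1.33, adjusted p = 0.0649). Among shared falls, FZD1, a WNT receptor, went from 13.3 and 14.2 to 7.51 and 5.62 CPM in DND-41 and from 4.62 and 4.42 to 0.159 and 0.385 in MOLT-4, where the treated libraries held 3 and 7 counts. FAM46C, a poly(A) polymerase, fell from 62.7 and 69.0 to 15.7 and 16.4 CPM in DND-41 and from 8.24 and 8.60 to 5.88 and 5.89 in MOLT-4, less in MOLT-4 by 1.52. IMPA2 also fell less in MOLT-4, by 1.77. TRGC2, a constant gene of the gamma receptor chain, fell more in MOLT-4 (-2.85), but its near-identical neighbour TRGC1 may share its reads, so its value is uncertain.

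Large effects were also shared: 423 members changed at least 2-fold in the same direction in both lines, 66 up and 357 down. The difference was called at 119 of them and lay within 1.5-fold, by its 95% interval, at 101. Over all 11489 members the difference was called at 17.1% and lay within 1.5-fold at 63.0%. Members with large shared effects were thus called more often, and bounded less often, than members at large. FLNA, the actin cross-linker filamin A, fell from 1780.0 and 1909 to 649 and 695 CPM in DND-41 and from 1055 and 1091 to 422 and 377 in MOLT-4, and its difference had an interval from -0.18 to 0.24. PKP4, a plakophilin of cell junctions, had an interval from -0.16 to 0.22. FANCC, of the Fanconi DNA repair pathway, and ZNF333, a zinc-finger gene, rose in both lines, with intervals from -0.31 to 0.24 and -0.39 to 0.17.

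Genes of T-cell receptor signalling held differences of both signs. The receptor's CD3 chains are phosphorylated by LCK and recruit ZAP70, which assembles LAT and LCP2. Of 30 members, 12 were called lower and 5 higher, against 7.67% and 9.41% of all members, with a median difference of -0.18. The balance of signs was not tested. Without both replicate 2 libraries of MOLT-4 these were 6 and 3. LCP2 fell from 165 and 156 to 98.4 and 93.5 CPM in DND-41 and from 240.3 and 210.0 to 62.1 and 49.4 in MOLT-4, a difference of -1.27 ± 0.12 (adjusted p = 4.66e-07). LAT differed by -1.18 and CD247, the zeta chain, by -0.89. CD3D, CD3E and CD3G differed by -0.40, -0.69 and -0.52. CD3D and CD3E rose in DND-41 and had effects of 0.05 and -0.06 in MOLT-4, which were not called. CD28, the co-stimulatory receptor, fell in MOLT-4 with an effect of -0.97, and its effect of 0.21 in DND-41 was not called. On the other side, FYN, a kinase related to LCK, fell from 183 and 183 to 114 and 113 CPM in DND-41 and had libraries of 111 and 109 against 106 and 108 CPM in MOLT-4, where no change was called. The adaptor GRAP2 fell more in DND-41, at 0.71. Of 23 thymocyte surface genes, 7 were called lower and 2 higher, and 5 and 1 without both replicate 2 libraries of MOLT-4. Of this list 39.1% was called, against 17.1% of all members. CD44 differed by -1.14. DNTT, which adds bases at recombining receptor genes, fell in DND-41 with an effect of -1.22 and was not called in MOLT-4, at a difference of 1.36 ± 0.11 (adjusted p = 5.81e-08).

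Genes of migration and adhesion were called lower at 11 and higher at 3 of 24, and 10 and 3 without both replicate 2 libraries of MOLT-4. CCR9, the gut and thymus homing receptor, stood at 2.23 and 2.17 CPM with DMSO and 1.1 and 0.960 with ACBI-1 in DND-41, and 85.8 and 93.4 against 8.26 and 7.32 in MOLT-4, so that the line with the high level had the deeper fall. CCR7, the lymph node homing receptor, was low in both lines and differed by -2.23 with an SE of 0.50. ITGAE, the CD103 integrin chain, was opposite. It rose from 29.6 and 30.1 to 79.0 and 87.0 CPM in DND-41 and fell from 35.2 and 38.6 to 28.2 and 30.1 in MOLT-4, a difference of -1.82 ± 0.10 (adjusted p = 1.21e-09). CXCR4, the receptor that keeps leukaemic cells in marrow, fell from 220.0 and 203 to 27.9 and 26.1 CPM in DND-41 and from 381 and 359.8 to 84.5 and 83.7 in MOLT-4, deeper in DND-41 by a difference of 0.83 ± 0.09 (adjusted p = 3.05e-06). ITGA4 also fell more in DND-41, at 0.59. Over the whole migration and adhesion list 58.3% was called, against 17.1% of all members.

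Cytokine signalling held differences of both signs, 6 higher and 4 lower of 26, a share of 38.5% against 17.1% of all members. These were 4 and 4 without both replicate 2 libraries of MOLT-4, and 4 and 5 with library size alone. STAT5A, which carries the interleukin-7 signal, stood at 5.46 and 7.54 CPM with DMSO and 1.39 and 2.01 with ACBI-1 in DND-41, and 674 and 661 against 709 and 695 in MOLT-4. Its fall in DND-41 came from a low level, and the difference was 2.0 ± 0.20 (adjusted p = 1.58e-06). Its paralog STAT5B rose from 282 and 268 to 425 and 407 in MOLT-4, a difference of 0.80. TGFBR2, a receptor for the growth inhibitor TGF-beta, fell from 31.8 and 30.1 to 19.7 and 19.3 CPM in DND-41 and rose from 38.8 and 35.9 to 51.5 and 51.6 in MOLT-4, a difference of 1.13. JAK3, the kinase of the shared gamma chain, fell from 19.1 and 18.3 to 5.88 and 4.62 CPM in DND-41 and from 64.7 and 59.9 to 7.36 and 7.27 in MOLT-4, a difference of -1.26. Interferon response genes were called lower at 9 and higher at 3 of 39, and at 7 and 1 without both replicate 2 libraries of MOLT-4. The called share of this list was 30.8%, against 17.1% of all members. Among the interferon genes IRF2 was opposite and differed by -1.12. RSAD2, an antiviral enzyme, rose more in MOLT-4, at 1.21 ± 0.19 (adjusted p = 0.000195).

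Of 19 immediate early genes, 7 were called lower and 1 higher, and 4 and 1 without both replicate 2 libraries of MOLT-4. Of 19 ERK feedback genes, 6 were called lower and 4 higher, which became 4 and 2 without those libraries and 4 and 4 by DESeq2. Called shares were 42.1% for the immediate early list, 52.6% for the ERK list and 35.7% for the NF-kB list below, against 17.1% of all members. The median difference of the ERK list, -0.13, changed sign when members were taken at 5 CPM in both lines. BTG1, an antiproliferative gene, rose from 60.3 and 58.0 to 155 and 139.8 CPM in DND-41 and fell from 30.1 and 32.0 to 26.7 and 25.1 in MOLT-4, a difference of -1.58 ± 0.10 (adjusted p = 5.69e-09). ETV5, an ETS factor induced by ERK, was opposite too. It rose from 45.5 and 42.2 to 61.0 and 65.2 CPM in DND-41 and fell from 18.3 and 16.8 to 9.10 and 6.88 in MOLT-4, a difference of -1.65 ± 0.14 (adjusted p = 1.83e-07). DUSP16 and DUSP1, phosphatases that switch off MAP kinases, had effects of 0.43 and 0.41 in DND-41 and -0.72 and -0.42 in MOLT-4, of which only the DUSP16 fall in MOLT-4 was called within a line. KLF10 differed by -1.40, its fall being called in MOLT-4 alone. Of 14 NF-kB targets, 4 were called lower and 1 higher, and 2 and 0 without both replicate 2 libraries of MOLT-4. LTB, lymphotoxin beta, fell from 133 and 129 to 91.8 and 82.6 CPM in DND-41 and from 8.40 and 8.64 to 0.90 and 1.27 in MOLT-4, a difference of -2.39 ± 0.20 (adjusted p = 1.38e-07).

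Hypoxia-inducible genes were called higher at 8 and lower at 3 of 26, and 3 and 3 without both replicate 2 libraries of MOLT-4. With library size alone they were 2 and 3. In the main fit the called share was 42.3%, against 17.1% of all members. EGLN3, an oxygen-sensing hydroxylase, fell from 14.7 and 15.6 to 5.41 and 6.90 CPM in DND-41 and rose from a low level from 1.05 and 1.29 to 2.33 and 2.31 in MOLT-4, a difference of 2.27 ± 0.28 (adjusted p = 1.7e-05). SLC2A3, a glucose transporter, and BHLHE40, a repressor, fell more in MOLT-4, at -2.15 and -2.0. SLC2A1, the main glucose transporter of growing cells, fell in DND-41 and was not called in MOLT-4, at a difference of 0.45. Metabolic MYC targets were called higher at 12 and lower at 0 of 32, or 37.5% of the list. This count was 1 with library size alone and 2 without both replicate 2 libraries of MOLT-4. HK2, which traps glucose in the cell, was opposite. It fell from 81.2 and 84.0 to 68.3 and 73.5 CPM in DND-41 and rose from 92.1 and 97.7 to 128 and 128 in MOLT-4, a difference of 0.65 ± 0.08 (adjusted p = 2.53e-05). SHMT2, of the mitochondrial one-carbon pathway, differed by 0.37 and the purine enzyme PPAT by 0.42.

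Stress genes of the endoplasmic reticulum were lower at 7 and higher at 4 of 28, and at 5 and 2 without both replicate 2 libraries of MOLT-4. HSPA5, the chaperone BiP, fell from 198 and 202 to 122 and 124 CPM in DND-41 and from 571 and 586 to 209 and 234 in MOLT-4, a difference of -0.69 ± 0.08 (adjusted p = 1.37e-05). XBP1, the splice-activated factor of this response, and HSP90B1 also fell more in MOLT-4, at -0.73 and -0.57. EDEM1 was opposite, at 0.97. Calls in this stress list came to 39.3%, against 17.1% of all members. Among 24 CDK inhibitors, D-type cyclins and growth-arrest targets, 7 were called lower and 2 higher, a share of 37.5%. Only 3 were called lower without both replicate 2 libraries of MOLT-4 and 3 by DESeq2, with 2 higher in each. GADD45B, a stress-induced growth regulator, rose from 45.9 and 45.7 to 81.2 and 77.8 CPM in DND-41 and fell in MOLT-4, at a difference of -1.26 ± 0.15 (adjusted p = 9.15e-06). CDKN1A, the p21 inhibitor, differed by -0.96. Apoptosis regulators were called lower at 5 and higher at 0 of 21, a share of 23.8% against 17.1% of all members, and 2 were called lower without both replicate 2 libraries of MOLT-4. MCL1, which protects lymphoid cells from death, fell from 92.7 and 92.7 to 63.7 and 64.6 in MOLT-4 and overlapped between treatments in DND-41, a difference of -0.54 ± 0.08 (adjusted p = 0.000116). BMF, which promotes death, rose in DND-41 alone and differed by -0.97.

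Cell-cycle lists had calls at about the share of all members, 16.7% in each of G2/M and G1/S against 17.1%. Genes of G2/M were called lower at 5 and higher at 0 of 30, and lower at 2 without both replicate 2 libraries of MOLT-4 and at 10 with library size alone. Among the 5 were CENPE at -0.48 and BUB1 at -0.38. Genes of G1/S and replication were called higher at 5 and lower at 1 of 36, and higher at 1 both without both replicate 2 libraries of MOLT-4 and with library size alone. CCNE2, a cyclin of S-phase entry, differed by 0.53, but was not called without both replicate 2 libraries of MOLT-4 (0.48, adjusted p = 0.0511). Ribosome biogenesis had 1 call in 40, BYSL at 0.30, and all 40 intervals lay within 1.5-fold. Nuclear genes of oxidative phosphorylation had 2 calls in 63, ATP5C1 at 0.27 and UQCRB at -0.29, and 59 intervals lay within 1.5-fold. None of these 3 calls was kept without both replicate 2 libraries of MOLT-4. Both shares, 2.5% and 3.17%, were under the 17.1% of all members. Of 34 polycomb and DNA methylation genes, 5 were called higher and 8 lower, a share of 38.2%. These were 1 and 3 without both replicate 2 libraries of MOLT-4, and 1 and 9 with library size alone. DNMT3A, which writes new DNA methylation, was opposite, with effects of 0.33 and -0.25, as was PHF1, a PRC2 partner, with -0.29 and 0.19. HLA class I and heat shock genes had 5 and 3 calls of 17 each, and none of these calls was kept without both replicate 2 libraries of MOLT-4. The called share was 29.4% for HLA class I and 17.65% for heat shock, the latter near the 17.1% of all members. HLA-B and HLA-C, called at 0.33 and 0.26, are near-identical in parts and their counts are uncertain.

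Mitochondrially encoded genes had a median difference of 0.58, with 6 of 13 called higher and 0 lower. That was a called share of 46.15%, against 17.1% of all members. MT-ND5, a complex I subunit, stood at 4781 and 5459 CPM with DMSO and 5462 and 4509 with ACBI-1 in DND-41, and 7478 and 5527 against 9777 and 11260.0 in MOLT-4. The DND-41 treatments overlapped, and the MOLT-4 control libraries were far apart. The share of counts from mitochondrially encoded genes was 12.1% and 13.2% in untreated and 15.5% and 11.8% in treated DND-41, and 19.0% and 14.4% in untreated and 21.3% and 24.6% in treated MOLT-4. None of the 6 was called without both replicate 2 libraries of MOLT-4, where the list's median was 0.14, nor by DESeq2. Nuclear copies of these genes may share their reads.

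**Figure D5:**
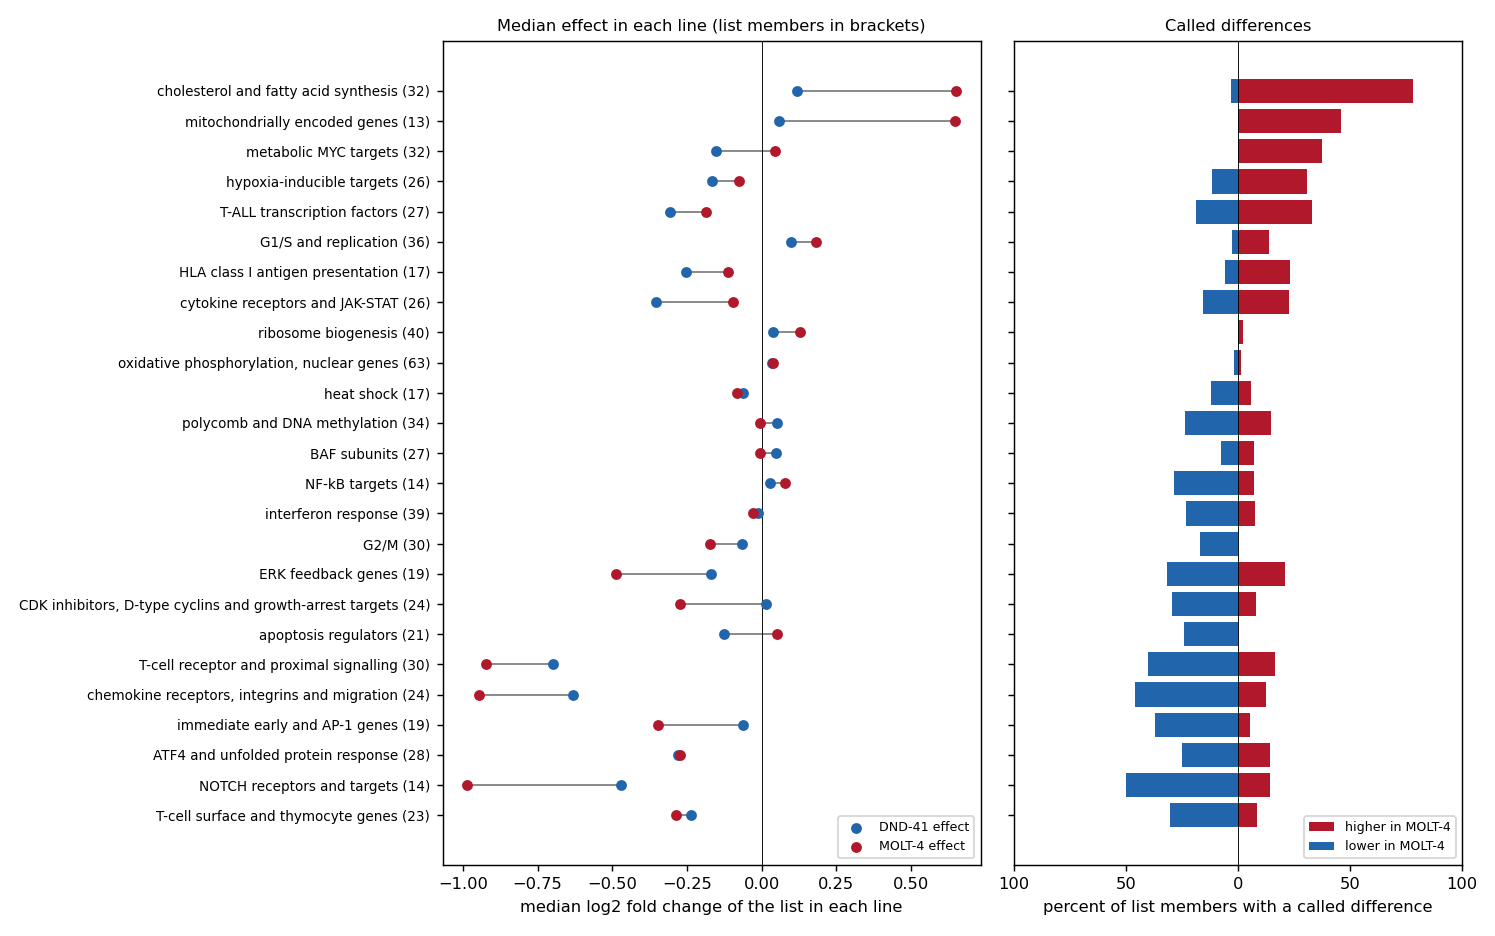
Left, the median log2 fold change of each list in DND-41 (blue) and MOLT-4 (red), for lists with at least 10 members, ordered by the median difference; list sizes are in brackets. Right, the percent of list members called higher (red) or lower (blue) in MOLT-4, from 25 of 32 higher for cholesterol and fatty acid synthesis to 7 of 14 lower for NOTCH receptors and targets.

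Markers of other lineages gave few members. B-lineage genes had 2, of which IGLL1, a surrogate light chain, fell from 463 and 436 to 222 and 227 CPM in DND-41 and from 160.1 and 165 to 54.0 and 49.9 in MOLT-4, a difference of -0.64. The single erythroid member had no called difference, and no myeloid or stromal and epithelial marker was a member.

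The share of called differences rose with level. With the members divided by mean level into 4 bins, 8.88% were called in the lowest, at a median SE of 0.28, and 21.9% in the highest, at 0.08. Protein-coding members were called at 18.2% of 10108, long intergenic RNAs at 11.7% of 231, antisense RNAs at 7.78% of 360 and processed pseudogenes at 2.27% of 132. By chromosome the share ran from 11% of 145 members on chromosome 18 to 25.4% of 122 on chromosome 21, among the chromosomes with over 100 members. Chromosomes 17 and 22 stood at 23.1% and 23.2%.

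The authors' deposited tables cannot be subtracted as they stand to give this difference. In the authors' deposited table for DND-41 the log2 fold change had the sign of ACBI-1 over DMSO at 11284 of 11489 members, and in that for MOLT-4 at 37, the other 11452 having the opposite sign. NOTCH1 is listed at -1.22 in the authors' deposited table for DND-41 and at 2.59 in that for MOLT-4, while its count columns fell in both lines. Every difference given here was therefore computed from the count columns.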

How the data were processed

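Strand-specific paired-end reads of 100 bp from total RNA (DNBSEQ, per the labels) of DND-41 and MOLT-4 cells made up 8 libraries, 2 in each of 4 groups set by the labels. The deposited values are raw counts for each gene, made by the authors with STAR 2.5.2a and featureCounts on hg19, per the submitters' processing notes. For annotation, strand setting and read filters, the choice is not given in the sources used here, so overlapping and antisense genes may share reads. The authors' deposited tables hold log2 fold changes, named as DESeq2 1.12.4 in the processing notes. Their p-values were deposited by the authors and were not used. Their score columns (mean level, standard error, test statistic) are as named per the file headers and were not used.

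The 2 tables were joined by gene identifier. Counts were fitted with edgeR 4.0.16 in R 4.3.3: filterByExpr (minimum count 10), TMM scaling, quasi-likelihood F test with 4 groups, contrasts within each line and for the interaction, Benjamini-Hochberg over 15498 genes, threshold 0.05. Each SE is the absolute log2 value divided by the square root of F, and intervals use 17.97 degrees of freedom. The fit was tested on simulated counts. Gene types came from GENCODE release 29 by identifier for 11265 of 11489 members.

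The members and the 29 gene lists were chosen with earlier results of these data known. Lists are described by counts and medians, with no set test. Named genes were taken by a rule: 7 fixed genes, the 6 largest differences of each sign and the 5 largest of each sign in opposite directions at 5 CPM in both lines, the 3 largest per form of shared direction, 1 higher and 1 lower per list with the smallest adjusted p, and, among genes with effects of at least 2-fold in both lines, the 2 rises and 2 falls with the narrowest interval around no difference. It left out clone, LINC, antisense and pseudogene names. Other list genes in the text were chosen after their values were seen, as were the 2 sterol promoters and the SRE motif. Some genes chosen by it are not reported here. In the other set of promoters 1 that the rule takes is not shown and the next was taken. Alternatives were DESeq2 1.42.0, size factors of the DESeq2 type, library size alone, fitting without a filter, members only in the fit, mitochondrially encoded genes left out, a replicate block, each line fitted alone for its own effect, a threshold of 0.01, members at 5 CPM, and leaving out each library or both MOLT-4 replicate 2 libraries. Tables and figures used Python 3.11.15, numpy 2.4.6, pandas 2.3.3, scipy 1.17.1 and matplotlib 3.10.9.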

Additional observations from a re-analysis of the deposited data

Results flagged for a closer look

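The results named here were picked out because the effect of ACBI-1 differed between the lines by a test of the difference itself, the interaction of line and treatment in edgeR with Benjamini-Hochberg adjustment. The difference was higher in MOLT-4 at 1081 members and lower at 881. The differences of the named genes follow, on the log2 scale as the MOLT-4 effect minus the DND-41 effect. Among genes that rose in MOLT-4 and fell in DND-41 the differences were EGLN3 2.27, XYLB 2.0, TERT 1.87, ARRDC4 1.85, DENND2D 1.85, RDH10 1.78, RASA3 1.74, ETS1 1.29, TGFBR2 1.13, EDEM1 0.97, MYC 0.72, CCND3 0.65, HK2 0.65 and PHF1 0.48. Among genes that fell in MOLT-4 and rose in DND-41 they were DDIT4 -3.17, CAMKK1 -2.20, EVPL -2.08, ID3 -1.92, AKNA -1.84, ETV5 -1.65, BTG1 -1.58, GADD45B -1.26, IRF2 -1.12, DNMT3A -0.58 and GLTSCR1 -0.49. Rises in both lines that were larger in MOLT-4 differed by GPR17 1.65, TSHR 1.37, CHI3L2 1.21, RSAD2 1.21, CCNE2 0.53 and BYSL 0.30. Rises in both lines that were larger in DND-41 differed by EGR1 -1.81, VPS37C -1.26, CPEB4 -1.20, TAP1 -0.32 and SREBF1 -0.29. Falls in both lines that were deeper in MOLT-4 differed by SEMA7A -4.64, FZD1 -2.96, TRGC2 -2.85, TMC8 -2.41, LTB -2.39, HES1 -1.97, NOTCH1 -1.36, LCP2 -1.27, CD44 -1.14, HSPA5 -0.69 and IGLL1 -0.64. Falls in both lines that were deeper in DND-41 differed by IMPA2 1.77, FAM46C 1.52, FADS1 1.28, CXCR4 0.83, NLRC5 0.65 and KLF6 0.56. Where a rise was called in MOLT-4 alone, the differences were MYB 0.78, MT-ND5 0.73, BCL7B 0.32 and HSF1 0.29. Where a fall was called in MOLT-4 alone, they were RASGRP2 -2.80, DCHS1 -2.46, MCL1 -0.54, CENPE -0.48, BAG3 -0.40 and POLE -0.31. Where a fall was called in DND-41 alone, they were DNTT 1.36, FYN 0.65, CD83 0.46, SMARCA2 0.35 and ATP5C1 0.27. A rise was called in DND-41 alone at UQCRB -0.29. No outlier test was run on single libraries, since groups held 2 each.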

How the results depend on the processing

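Of 71 named genes with a called difference, 56 stayed called with the same sign in all 17 alternatives tried on them. The other 15 were those not called without both MOLT-4 replicate 2 libraries. Fitting each line alone took the difference from the main fit, so a called difference could not be lost in that alternative. The cause of the changes below was not tested.

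Members called higher (1081) and lower (881) numbered 476 and 1314 with library size alone, 914 and 1029 without mitochondrially encoded genes, 614 and 529 at a threshold of 0.01, and 435 and 483 without both MOLT-4 replicate 2 libraries. Opposite directions (126 rising in MOLT-4, 89 falling) numbered 70 and 58 by DESeq2, 58 and 51 at a threshold of 0.01, 55 rising with library size alone and 50 rising without both MOLT-4 replicate 2 libraries. At 5 CPM in both lines, where fewer genes are members, 66 differed by at least 2-fold upward and 112 downward. Omission of single libraries, with a group of 1 assumed to vary as the other groups do, gave 682 to 1181 higher, 583 to 920 lower, 75 to 137 opposite with a rise in MOLT-4 and 54 to 94 with a fall. The lowest counts came without MOLT-4 DMSO replicate 2 (682 and 75), MOLT-4 ACBI-1 replicate 1 (583) and DND-41 DMSO replicate 1 (54).

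Uncalled differences near 0 changed sign. With library size alone RUNX1 was -0.0959, PKP4 -0.0947 and FLNA -0.0947. RUNX1 was -0.00239 without mitochondrially encoded genes, and PKP4 was -0.0117 without both MOLT-4 replicate 2 libraries. With 1 library left out, RUNX1 ran from -0.0498 to 0.107, FLNA from -0.0474 to 0.112, PKP4 from -0.0133 to 0.0822, ZNF333 from -0.209 to 0.012 and FANCC from -0.134 to 0.0505.

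Same-numbered libraries deviated together within a line at correlations of 0.138 and 0.148 and across lines at -0.05 and -0.08. They share only a number by the labels, and with the replicate block 1356 members were called higher and 1094 lower. Depth limits low genes: the median SE was 0.28 in the lowest of 4 bins of members by level.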
